A study of Mus musculus with 12 samples.

Results

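The question here was whether laparotomy, an incision of the abdominal wall, left a different mark on soleus muscle in high functioning (HF) than in low functioning (LF) old mice. All 12 libraries of the series entered, 3 in each of 4 groups: HF laparotomy, HF control, LF laparotomy and LF control. Every group consisted of male C57BL/6N mice aged 24 months from the NIA aging colony, housed singly, with 8 weeks of access to a running wheel. HF and LF animals had been separated by how they performed on an accelerating rotarod, and the soleus was taken 5 days after surgery. The labels do not state what the controls underwent in place of laparotomy, nor that each library comes from its own mouse, so p-values reflect variation among these libraries alone, possibly technical. Of 30323 genes in the deposited table, 10757 had a mean of at least 1 TPM (transcript abundance scaled by transcript length and library) and form the tested set. For each of them the interaction was computed: the laparotomy minus control difference in HF minus the same difference in LF, on log2(TPM + 1).

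The soleus is a postural muscle of the calf that in mice mixes slow fibres, built on the myosin heavy chain Myh7, with fast oxidative fibres. Surgery away from the limb is known to reach skeletal muscle through circulating cytokines, glucocorticoids, reduced feeding and reduced movement, and these signals act on protein synthesis, proteolysis and mitochondria. An interaction in such a design marks genes whose response depends on the state of the animal before surgery, as opposed to genes that respond alike.

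Slow Myh7 made up, of the summed TPM of itself and the fast myosins Myh1, Myh2 and Myh4, from 38.99% to 64.65% in the libraries, so slow muscle was sampled in each. Fast Myh4 lay above 30 TPM in HF laparotomy 2 (90.8 TPM), LF laparotomy 1 (62.4 TPM) and LF control 3 (33.5 TPM), and between 3.05 and 5.93 TPM in the other 9. One further library stood apart: HF control 2 held 108 TPM of the stress gene Gadd45a, against 6.85 to 17.6 TPM in the other HF libraries. Each library listed between 16993 and 18148 genes above 0. Differences below are centred: the median over the whole tested set is subtracted, since it lay at -0.09 log2 for the interaction, -0.12 for laparotomy in HF and -0.03 in LF. With median-of-ratios size factors these 3 medians were within 0.004 log2 of 0. The p-values come from limma and test the uncentred differences.

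No gene passed the interaction test: 0 of 10757 genes (0%) had an adjusted p below 0.05 in limma, and the smallest adjusted p was 0.685. At an unadjusted p below 0.05 there were 331 genes (3.08% of those tested), 37 with a positive interaction (0.344%) and 294 with a negative one (2.73%). That split followed the scaling, since size factors gave 130 positive and 187 negative, and TPM rescaled without the most abundant genes gave 128 positive and 113 negative. Without the 3 libraries with Myh4 above 30 TPM there were 33 positive and 584 negative. Neither of the laparotomy comparisons it is built from passed for any gene: limma called 0 in HF, with 665 at an unadjusted p below 0.05 (6.18%), and 0 in LF, with 291 (2.71%). Of those, 28 were higher (0.26%) and 637 lower (5.92%) after laparotomy in HF, and 156 higher (1.45%) and 135 lower (1.25%) in LF. The median standard error of the interaction was 0.186 log2, against 0.132 for laparotomy in HF or LF alone. Centred interactions of 1 log2 or more were estimated for 19 genes and of -1 or less for 29. Everything that follows describes sizes and orders of values, and no gene below is called as changed.

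Signs of the laparotomy difference in HF and LF were opposite for 42.8% of tested genes once centred, fewer than had like signs. That made 2302 genes higher in HF and lower in LF, 2303 lower in HF and higher in LF, and 3075 in each of the groups of like sign. Where both differences were at least 0.5 log2 in size, 6 genes were higher in HF with lower in LF, 8 were lower in HF with higher in LF, 10 were higher in both and 13 lower in both. Across genes the HF and LF differences had a Pearson r of 0.0903 and a Spearman correlation of 0.162, which describes genes and not independent samples. Without the 3 libraries high in Myh4 these correlations were -0.034 and -0.0313, and centred signs were opposite for 50.1% of tested genes.

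**Figure D1:**
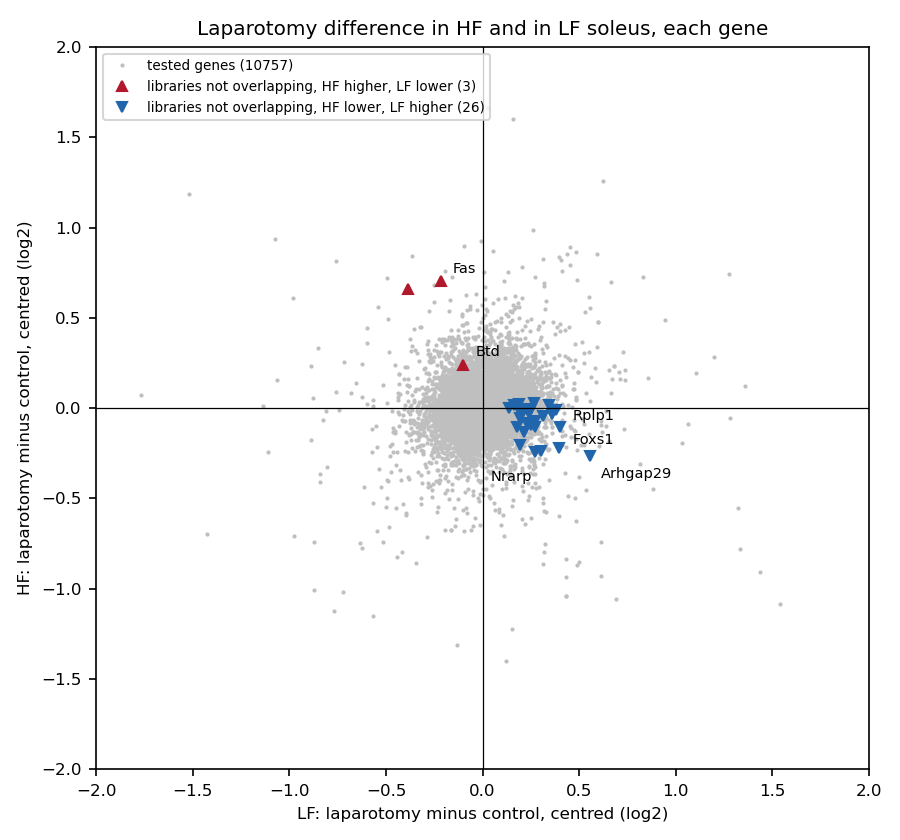
Each grey point is 1 of 10757 tested genes, with the centred laparotomy minus control difference (log2) in LF soleus on the x axis and in HF soleus on the y axis; triangles mark genes whose laparotomy and control libraries do not overlap in either HF or LF and lie in opposite directions as deposited. The 3 upward triangles have HF differences of 0.24 to 0.70, the 26 downward triangles lie at -0.27 to 0.03 in HF and at 0.14 to 0.55 in LF, and 7 genes lie outside the axes.

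The genes with a positive interaction, those relatively higher after laparotomy in HF than in LF, had Proser3, Fas, Nrm, Mybpc2, Ift74 and Sap25 at the smallest p once predicted and unnamed genes were left out. The predicted pseudogene Gm12397, with a centred interaction of 1.05, had a smaller p than any of them. Fas encodes the death receptor of the extrinsic apoptosis pathway and is a target of p53. It stood at 5.87, 8.85 and 9.41 TPM in HF laparotomy, against 5.27, 4.76 and 4.82 TPM in HF control, and at 4.74, 4.70 and 3.79 TPM in LF laparotomy, against 5.25, 5.68 and 5.23 TPM in LF control. As deposited, every HF laparotomy library was above every HF control and every LF laparotomy library below every LF control. With size factors this full separation in opposite directions did not hold. The centred interaction of Fas was 0.92 ± 0.21 log2 (SE; limma adjusted p = 1), from 0.70 in HF and -0.22 in LF. It lay on chromosome 19 (34290666 to 34327772, GRCm38, GENCODE M21), and its signs in HF and LF were the same under all 4 other scalings.

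Chac1, a glutathione-degrading enzyme induced by the integrated stress response, averaged 5.67 ± 3.09 TPM in HF laparotomy and 3.68 ± 2.08 TPM in HF control, and 2.40 ± 1.01 TPM in LF laparotomy and 6.01 ± 2.81 TPM in LF control (SD, n = 3 each). Its centred interaction was 1.59 ± 0.58 log2 (limma adjusted p = 1), with all LF laparotomy libraries below all LF controls and overlap in HF. Flvcr1, which encodes a haem exporter, had an interaction of 0.93 ± 0.32 log2. It stood at 17.3, 8.84 and 11 TPM in HF laparotomy, against 7.39, 10.9 and 5.72 TPM in HF control, and at 7.80, 6.21 and 8.52 TPM in LF laparotomy, against 9.59, 9.26 and 9 TPM in LF control. In HF its groups overlapped, and in LF all laparotomy libraries were lower.

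Pim3, a serine/threonine kinase, Dusp7, a phosphatase of ERK, Med31, a Mediator subunit, Ift74, an intraflagellar transport subunit, and Nrm, a nuclear envelope protein, had centred interactions of 0.48 to 0.65 log2. Med31 differed mostly in LF: it stood at 6.67, 5.64 and 5.65 TPM in HF laparotomy, against 6.33, 6.21 and 5.88 TPM in HF control, and at 4.37, 4.98 and 5.17 TPM in LF laparotomy, against 7.15, 7.12 and 6.15 TPM in LF control. The HF groups overlapped and the LF groups did not. Mybpc2, the fast isoform of myosin-binding protein C, had the largest estimate of these 12 genes, 3.36 ± 1.2 log2, and its value of 57.4 TPM was in HF laparotomy 2, the library with the most Myh4, while HF laparotomy 3 held 2.37 TPM. Without HF laparotomy 2 the estimate of Mybpc2 was 2.42. The values of Proser3, Sap25 and Insl3 are uncertain, because Proser3 overlaps Hspb6 on the opposite strand, Sap25 shares 70.0% of its 31-base words with Gm20605 and Insl3 shares 63.1% with Jak3.

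Among the genes with a negative interaction, those relatively higher after laparotomy in LF than in HF, the smallest p in the whole table belonged to Arhgap29, a GTPase-activating protein known from endothelial cells. It stood at 1.74, 1.71 and 2.03 TPM in HF laparotomy, against 3.17, 2.21 and 2.76 TPM in HF control, and at 2.13, 2.14 and 2.06 TPM in LF laparotomy, against 1.39, 1.12 and 0.989 TPM in LF control. As deposited, all HF laparotomy libraries were below all HF controls and all LF laparotomy libraries above all LF controls. With size factors this full separation did not hold. The centred interaction was -0.82 ± 0.17 log2 (limma adjusted p = 0.685). It ranged from -0.96 to -0.73 when 1 library was left out, and the gene lies on chromosome 3 (121952541 to 122016753).

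A similar order of groups was seen in Nrarp, a feedback inhibitor that is itself switched on by Notch, and in Foxs1, a forkhead factor found in pericytes. Nrarp stood at 2.30, 2.39 and 2.31 TPM in HF laparotomy, against 3.26, 3.23 and 3.33 TPM in HF control, and at 2.62, 2.60 and 1.90 TPM in LF laparotomy, against 1.85, 1.61 and 1.87 TPM in LF control. Foxs1 stood at 0.978, 1.13 and 1.11 TPM in HF laparotomy, against 2.01, 1.39 and 1.52 TPM in HF control, and at 1.74, 1.16 and 1.59 TPM in LF laparotomy, against 0.906, 0.941 and 0.937 TPM in LF control. As deposited, the laparotomy and control libraries of both genes did not overlap in HF or in LF. With size factors this held for Foxs1 and not for Nrarp. Their centred interactions were -0.54 ± 0.15 for Nrarp and -0.62 ± 0.17 for Foxs1, each with a limma adjusted p of 1. These 3 genes lie at or under 3.33 TPM in every library, where the pseudocount of 1 shrinks differences.

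P3h4, a protein of the endoplasmic reticulum needed for collagen lysine hydroxylation, differed mostly on the HF side. It stood at 2.82, 3.78 and 3.56 TPM in HF laparotomy, against 7.94, 8.20 and 5.25 TPM in HF control, without overlap, and at 5.30, 5.07 and 6.87 TPM in LF laparotomy, against 4.31, 3.71 and 5.50 TPM in LF control, with overlap. The centred interaction was -1.08 ± 0.24 log2 (limma adjusted p = 1). Lars2, the mitochondrial leucyl-tRNA synthetase, had an interaction of -0.67 ± 0.20 and was lower in HF laparotomy (5.04, 5.93 and 5.48 TPM) than in any HF control (7.34, 9.02 and 9.81 TPM), while LF laparotomy (14.1, 20.9 and 19.1 TPM) overlapped LF control (14.6, 15.7 and 16.7 TPM).

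Other genes differed mostly on the LF side. Lmcd1, a LIM-domain cofactor that promotes muscle growth and calcineurin signalling, stood at 238, 276 and 226 TPM in HF laparotomy, against 254, 246 and 245 TPM in HF control, and at 367, 352 and 381 TPM in LF laparotomy, against 268, 265 and 274 TPM in LF control. Tnfrsf12a, the receptor for the cytokine TWEAK that is induced in injured and denervated muscle, stood at 35.6, 59.6 and 33.4 TPM in HF laparotomy, against 50.5, 36.1 and 33.5 TPM in HF control, and at 57.3, 52.0 and 52.0 TPM in LF laparotomy, against 21.1, 25.6 and 28.7 TPM in LF control. For Nmrk2, a muscle kinase that makes NAD from nicotinamide riboside, the values were 14.5, 11.9 and 15.2 TPM in HF laparotomy, against 10.4, 16.6 and 13.7 TPM in HF control, and 28.4, 30.5 and 22.3 TPM in LF laparotomy, against 13.5, 14.6 and 16.1 TPM in LF control. In all 3 genes HF laparotomy overlapped HF control, and LF laparotomy was above LF control without overlap.

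The centred difference was 0.11 in HF and 0.47 in LF for Lmcd1, 0.19 in HF and 1.10 in LF for Tnfrsf12a, and 0.17 in HF and 0.86 in LF for Nmrk2. Their interactions were -0.37 ± 0.13 for Lmcd1, -0.91 ± 0.29 for Tnfrsf12a and -0.69 ± 0.23 for Nmrk2, with a limma adjusted p of 1 in each. Neither the sign of the HF nor that of the LF difference of these 3 genes moved under the other scalings. Abhd14b, Snurf and Fam177a complete the 12 genes of this direction and are uncertain: Abhd14b overlaps Abhd14a on the opposite strand, every 31-base word of Snurf is shared with Snrpn, and 98.5% of those of Fam177a are shared with 1700047I17Rik2.

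**Figure D2:**
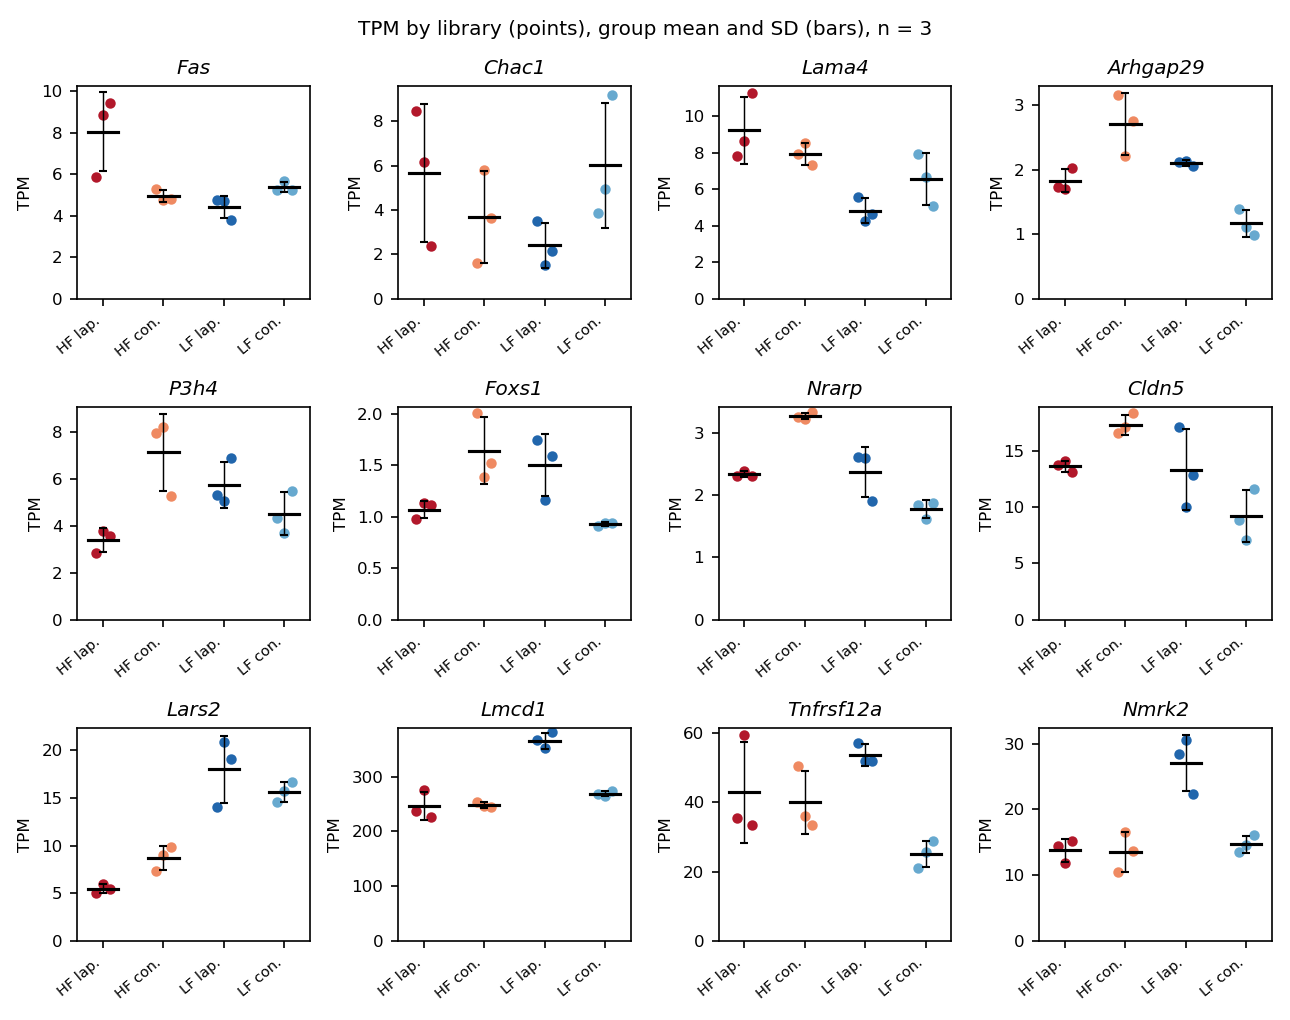
TPM of 12 genes in each library (points), with the group mean (wide bar) and SD (n = 3), groups ordered HF laparotomy, HF control, LF laparotomy and LF control; y axes start at 0 and differ between panels. Fas is highest in HF laparotomy (5.87 to 9.41 TPM), Arhgap29 and Nrarp lie between LF control and HF control after laparotomy, and Lmcd1, Tnfrsf12a and Nmrk2 stand out in LF laparotomy.

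**Figure D3:**
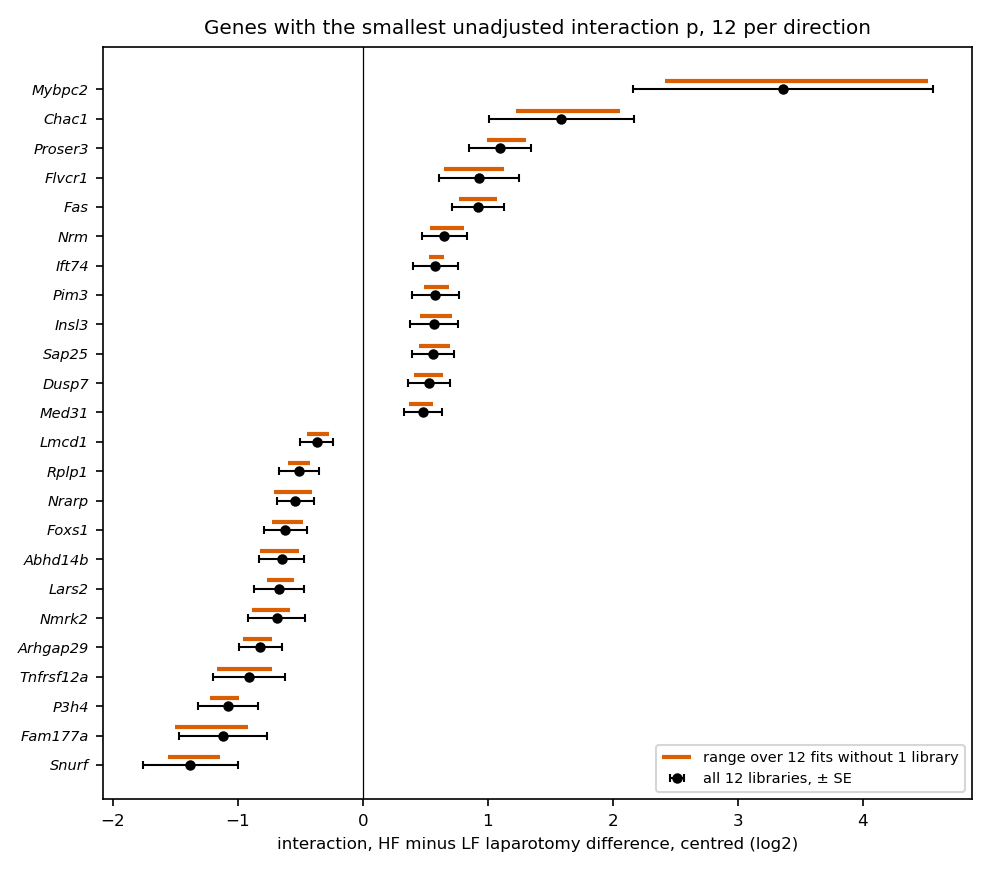
Centred interaction (log2, HF minus LF laparotomy difference) of 24 genes, the 12 per direction with the smallest unadjusted p after predicted and unnamed genes were left out, with its standard error over all 12 libraries (black) and the range over 12 fits that leave out 1 library (orange). None of the ranges crosses 0, but the genes were chosen by small p in these same libraries. That choice favours ranges off 0, so they lend no support. Mybpc2 has the widest range, from 2.42 to 4.52.

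Genes whose laparotomy and control libraries separated fully and in opposite directions were few. As deposited, 3 genes (0.0279% of those tested) had all HF laparotomy libraries above all HF controls and all LF laparotomy libraries below all LF controls: Fas, Btd and the processed pseudogene Gm12397. Btd encodes biotinidase, which recycles biotin, and stood at 3.95, 4.01 and 4.45 TPM in HF laparotomy, against 3.59, 3.82 and 3.75 TPM in HF control, and at 4.21, 4.48 and 4.49 TPM in LF laparotomy, against 4.61, 4.99 and 5.14 TPM in LF control. Its exons overlap those of Hacl1 on the opposite strand.

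The reverse pattern, HF laparotomy below and LF laparotomy above, held for 26 genes (0.242%). Besides Arhgap29, Nrarp and Foxs1 it included Vcpkmt, a lysine methyltransferase of the chaperone VCP, Gemin7, a part of the SMN complex that assembles spliceosomal particles, and 7 cytosolic ribosomal protein genes. Gemin7 stood at 29.9, 29.8 and 29.9 TPM in HF laparotomy, against 32.9, 37.5 and 34.2 TPM in HF control, and at 29.1, 32.9 and 35.7 TPM in LF laparotomy, against 28.8, 28.7 and 25.6 TPM in LF control. The HF side of this count reads against a wide background: all HF laparotomy libraries lay below all HF controls in 1783 genes (16.6%) and above them in 65 (0.604%). In LF, all laparotomy libraries lay above all controls in 273 genes (2.54%) and below in 422 (3.92%). Full separation in the same direction in HF and LF was found for 2 genes above control (0.0186%) and 61 below (0.567%). With size factors the HF counts were 529 above (4.92%) and 556 below (5.17%), and the LF counts 660 above (6.14%) and 397 below (3.69%).

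Scaling decided most of this membership. Size factors gave 4 genes in the first pattern and 12 in the second, of which 0 and 3 (Foxs1, Vcpkmt and, named after its values were seen, Galnt17) were among those found as deposited. Quantile normalization gave 10 and 13, rescaled TPM 10 and 9, and correction for transcript length and GC content 8 and 10. No gene kept its place under all 5 scalings. Leaving out LF laparotomy 1 alone took the second count to 190, and over all 12 such fits it ran from 31 to 190, while the first ran from 3 to 10. Without the 3 libraries high in Myh4 the counts were 18 and 582. Fewer libraries make full separation easier.

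Ribosomal proteins of the cytosol, which with ribosomal RNA make up the translating ribosome and are encoded by genes regulated together, were the list with the most genes on the negative side. Of 80 tested members 0 passed the adjusted test, 40 had a negative interaction at an unadjusted p below 0.05 (2.73% of all genes) and 0 a positive one. Under other scalings that unadjusted count was 15 with size factors and 12 with quantile normalization, beside 187 of all 10757 genes in each. With rescaled TPM it was 11, beside 113 of 10757. After correction for length and GC it was 18, beside 159 of 10686. The list's median centred interaction was -0.19 log2, beside 0 for all tested genes by construction, and 73 of 80 members lay below 0. It ranged from -0.22 to -0.13 when 1 library was left out.

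Rplp1, an acidic protein of the ribosomal stalk, stood at 787, 773 and 830 TPM in HF laparotomy, against 858, 981 and 961 TPM in HF control, and at 672, 766 and 830 TPM in LF laparotomy, against 661, 508 and 586 TPM in LF control. Rpl15, of the large subunit, stood at 207, 209 and 200 TPM in HF laparotomy, against 252, 219 and 221 TPM in HF control, and at 181, 192 and 207 TPM in LF laparotomy, against 164, 146 and 167 TPM in LF control. As deposited, neither gene's groups overlapped in HF or LF, and the LF laparotomy libraries lay between LF control and HF control. Such separation, lower in HF and higher in LF, held for 7 of 80 members as deposited (0.242% of all genes). Size factors gave 0 (0.112%), quantile normalization 1 (0.121%), rescaled TPM 3 (0.0837%) and correction for length and GC 2 (0.0936%). All HF laparotomy libraries lay below all HF controls in 11 of 80 as deposited, beside 16.6% of all genes. With size factors they did in 0, beside 5.17%. Rplp1 is uncertain, with 75.1% of its 31-base words shared with other genes, mainly Gm10073, and Rpl15 overlaps Nkiras1, as Rpl28 does Ube2s, on the opposite strand.

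Whether the ribosomal differences lay in opposite directions depended on the scaling, while the order of HF and LF did not. As deposited, 60 of 80 had a negative HF and a positive LF difference, beside 3461 of all 10757 genes. Relative to the median of all genes 15 of 80 did, beside 2303 of 10757. In HF 64 lay above that median too, and 78 did in LF. The median centred difference was 0.07 log2 in HF and 0.25 in LF, and with size factors it was 0.09 in HF and 0.26 in LF. The LF difference exceeded the HF difference in 72 of 80 genes as deposited and centred, and in 65 to 73 under the other 4 scalings. All LF laparotomy libraries were above all LF controls in 52 of 80 genes, beside 2.54% of all genes, and with size factors in 57 of 80, beside 6.14%. Quantile normalization left 22 of 80, beside 5.07%, rescaled TPM 43, beside 1.66%, and correction for length and GC 57, beside 5.23%. Under quantile normalization the list's median was 0.03 in HF and 0.16 in LF, and -0.12 for the interaction. Summed, the 80 genes held 30290 to 31070 TPM in HF laparotomy, 30980 to 32490 TPM in HF control, 27010 to 29720 TPM in LF laparotomy and 22220 to 25080 TPM in LF control. GC content moved with these values across genes, with a Spearman correlation of 0.288 for the LF difference and -0.243 for the interaction, and its part in the result was not tested beyond the fit with the trend removed, where the list's median was -0.17.

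**Figure D4:**
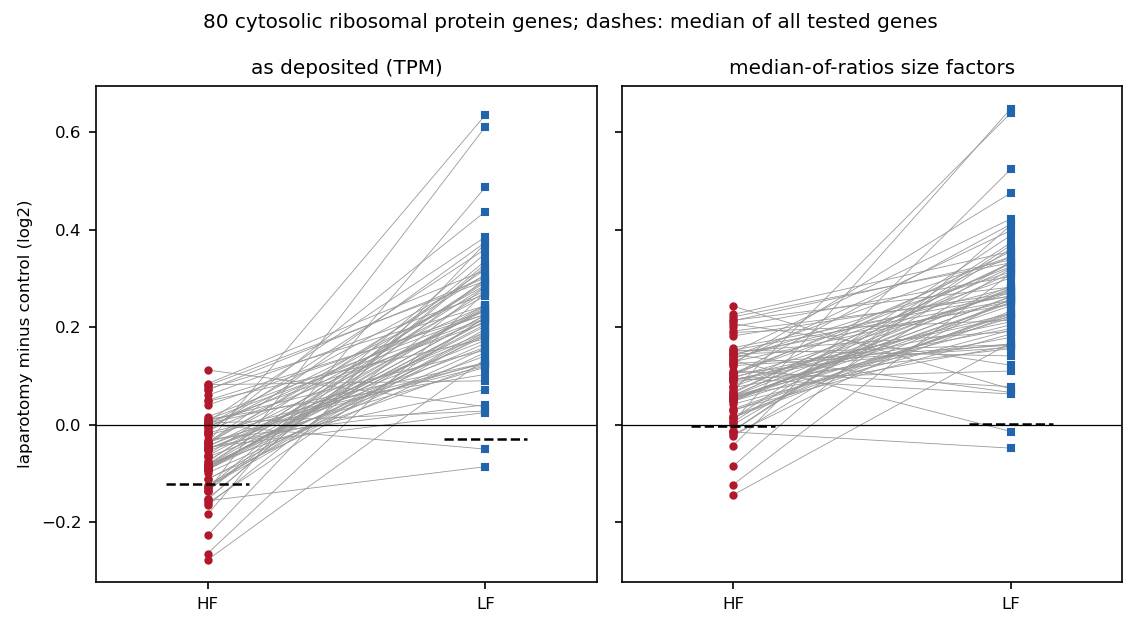
Laparotomy minus control difference (log2, not centred) of 80 cytosolic ribosomal protein genes in HF (circles) and LF (squares), lines joining each gene, as deposited on the left and with size factors on the right; dashes give the median of all tested genes. HF values sit mostly below 0 on the left and mostly above 0 on the right, and 72 of 80 lines slope upward relative to the dashes in each panel.

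Rplp2, the partner of Rplp1 in the stalk, stood at 606, 595 and 573 TPM in HF laparotomy, against 635, 673 and 665 TPM in HF control, and at 504, 520 and 625 TPM in LF laparotomy, against 491, 364 and 460 TPM in LF control. Rpl28, of the large subunit, stood at 259, 236 and 260 TPM in HF laparotomy, against 269, 292 and 266 TPM in HF control, and at 179, 180 and 216 TPM in LF laparotomy, against 166, 126 and 160 TPM in LF control. As deposited, neither gene's groups overlapped in HF or LF, though the centred HF difference of Rpl28 was -0.01, and 0.01 with size factors.

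**Figure D5:**
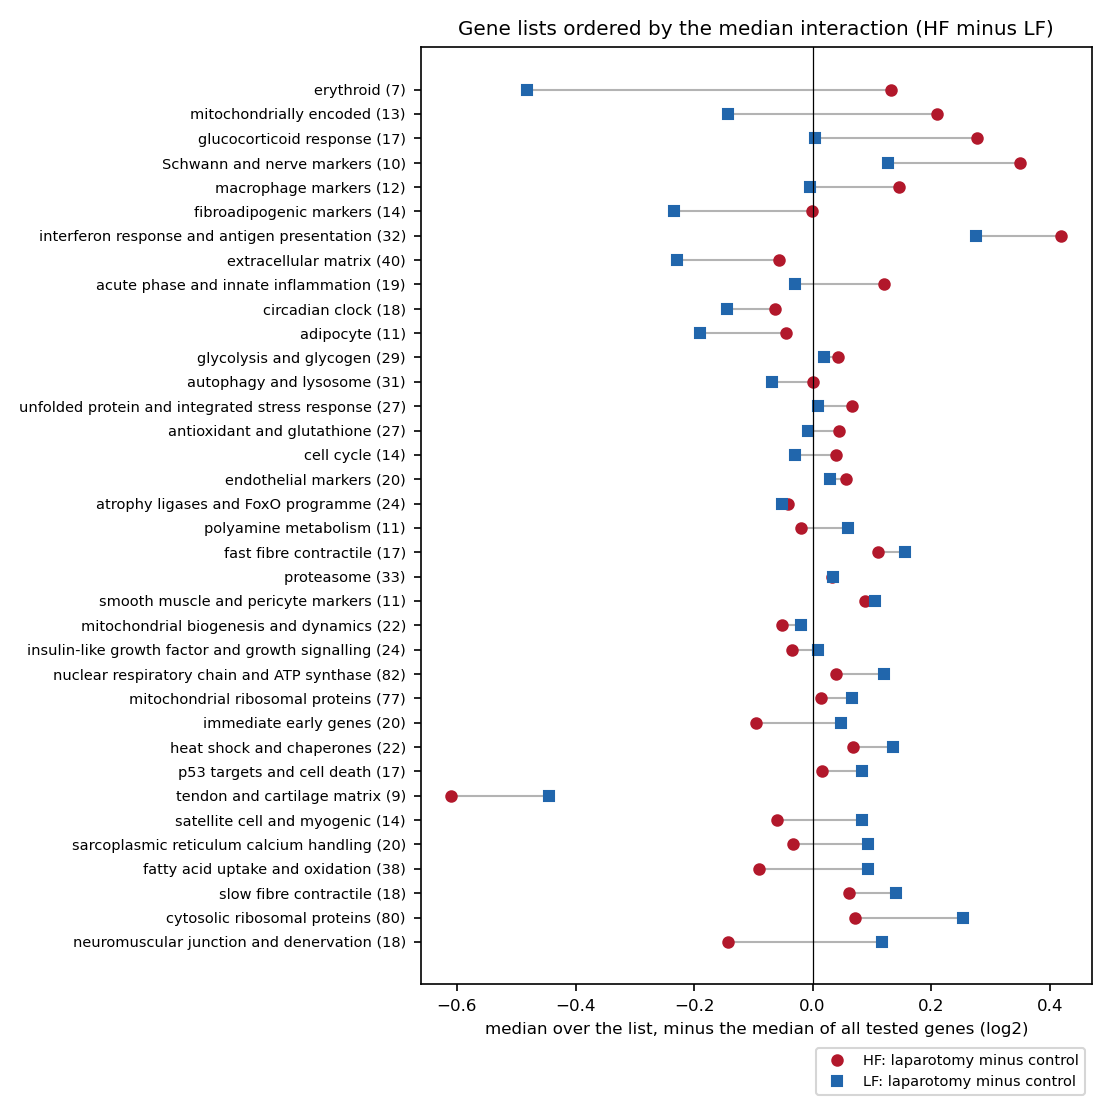
Median laparotomy minus control difference (log2, relative to all tested genes) of 36 gene lists in HF (circles) and LF (squares), with tested members in brackets, ordered from the most positive interaction at the top. The erythroid and mitochondrially encoded lists lie on opposite sides of 0 with HF above LF, and the neuromuscular junction list with HF below LF.

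Slow contractile and calcium genes had negative medians as well. The slow fibre list had 18 tested members, with 3 at an unadjusted p below 0.05, all negative, and a median of -0.16 (-0.08 without LF control 2, -0.10 with quantile normalization and -0.11 without the libraries high in Myh4). They were Lmcd1, the myosin light chain Myl6b (-0.98 ± 0.39 log2) and the slow ventricular-type light chain Myl3 (-0.30 ± 0.18). Myl6b stood at 86.0, 90.9 and 98.6 TPM in HF laparotomy, against 139, 167 and 122 TPM in HF control, and at 156, 201 and 84.7 TPM in LF laparotomy, against 146, 75.8 and 93.9 TPM in LF control, without overlap in HF and with overlap in LF. For sarcoplasmic reticulum calcium handling 4 of 20 members were negative at that threshold and 0 positive, with a median of -0.15 (-0.09 without LF laparotomy 3). Of all tested genes 2.73% were negative and 0.344% positive at that threshold as deposited, a split that moved with the scaling. The 4 calcium handling members at that threshold included Asph (-0.28 ± 0.13), whose locus encodes junctin, and the calcium pump inhibitor Mrln (-0.63 ± 0.29). They also included Jph2 (-0.34 ± 0.18), which ties the reticulum to the transverse tubules. The p-values test uncentred differences, which include the all-gene median of -0.09 that the printed estimates leave out. No interaction of these lists passed the adjusted test.

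The slow myosin share averaged 52.9% ± 6.03 in HF laparotomy and 57.7% ± 10.9 in HF control, and 43.1% ± 4.88 in LF laparotomy and 46.1% ± 2.22 in LF control (SD, n = 3 each). The interaction was -1.70 percentage points (exact permutation of treatment labels within HF and within LF, two-sided p = 0.835, smallest possible 0.005). Without HF control 1 it was 1.79, so its sign depended on single libraries. The null of that permutation, here and below, is no laparotomy effect in either HF or LF, rather than an equal effect in both. The first principal component of all tested genes, with 48.1% of the variance, had an interaction of 8.09 (exact permutation, two-sided p = 0.505), which ran from 0.73 without LF laparotomy 3 to 16.5 without LF laparotomy 1 and was 2.83 with size factors, 2.60 with quantile normalization and 0.78 with rescaled TPM. The fast fibre list had a median of -0.01 over 17 members, from -0.16 without HF laparotomy 2 to 0.23 without HF control 3, and above 0 under the other 4 scalings.

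Transcripts encoded by the mitochondrial genome, 13 subunits of the respiratory chain and ATP synthase, had a positive median. Their share of all TPM was 35.68%, 35.30% and 35.88% in HF laparotomy, against 35.42%, 34.95% and 32.27% in HF control, and 33.39%, 32.43% and 26.39% in LF laparotomy, against 34.70%, 39.72% and 30.64% in LF control. HF laparotomy varied by under 1 percentage point, and laparotomy and control overlapped in HF as well as in LF. The interaction was 5.68 percentage points (exact permutation, two-sided p = 0.135, adjusted p = 0.405 over 3 such values), and without LF control 3 it was 7.88 with an exact permutation p of 0.02, not adjusted. Without LF control 2 it was 3.33 and without LF laparotomy 3 it was 3.51. Without the 3 libraries high in Myh4 it was 9.36 (exact permutation, two-sided p = 0.05). Nuclear copies share part or nearly all of the 31-base words of some of these genes. Most of the TPM listed for the copies was in Gm29216 and Gm28661 on chromosome 1. Including such copies, the interaction was 6.20 percentage points (exact permutation, two-sided p = 0.1). On log2 values the list's median was 0.34, from 0.21 in HF and -0.14 in LF. It was 0.16 without LF laparotomy 3, 0.11 with quantile normalization and 0.63 without the libraries high in Myh4. Above the all-gene median in HF and below it in LF were 10 of 13 genes, beside 2302 of all 10757. Nuclear genes of the same complexes, 82 tested, had a median of -0.04 and 0 at an unadjusted p below 0.05 in either direction. Mitochondrial ribosomal proteins had a median of -0.07 over 77 genes, with 3 negative and 0 positive at that threshold, near the 2.73% and 0.344% of all genes. These medians were 0.05 and 0.003 without HF laparotomy 3, and -0.14 and -0.13 without HF laparotomy 1.

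Fatty acid uptake and oxidation had a median of -0.16 over 38 genes. Below the all-gene median in HF and above it in LF were 20, beside 2303 of all 10757 genes. The other way were 2, beside 2302. The median was -0.28 without LF laparotomy 2 and -0.05 without LF laparotomy 3. A single member was negative at an unadjusted p below 0.05, a share near the 2.73% of all genes. It was Slc27a1, a fatty acid transport protein, at 6.27, 6.92 and 5.79 TPM in HF laparotomy, against 6.48, 12.4 and 10.8 TPM in HF control, and at 9.50, 11.3 and 18.7 TPM in LF laparotomy, against 9.03, 10.5 and 13.3 TPM in LF control. Groups overlapped in HF and in LF. The glycolysis list had a median of 0.08 over 29 genes, 0.02 without LF control 2 and -0.01 without the libraries high in Myh4.

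Genes of the neuromuscular junction and of denervation had the lowest median of the lists, -0.25 over 18 genes, with 0 at an unadjusted p below 0.05. Below the all-gene median in HF and above it in LF were 10, beside 2303 of all 10757 genes. Part of the low median rested on HF control 2. Chrnd, the delta subunit of the acetylcholine receptor that denervated fibres make, stood at 2.37, 3.22 and 3.35 TPM in HF laparotomy, against 3.01, 14.2 and 2.70 TPM in HF control, and at 5.88, 5.59 and 5.73 TPM in LF laparotomy, against 4.45, 4.36 and 4.79 TPM in LF control. The LF groups separated and the HF groups overlapped. The list's median was -0.44 without HF control 1 and -0.04 without HF control 2, and in the fit without HF control 2 the interaction of Chrnd was -0.20, against -0.81 with it. The list's summed level reached 357.3 TPM in HF control 2, and lay between 113.5 and 188.6 TPM in the other 11 libraries. The extracellular glutathione peroxidase Gpx3 (248 TPM in HF control 2, against 49.8 and 50.1 TPM in the other HF controls), the calcium pump regulator Sln (278 TPM, against 46.7 and 43.8 TPM) and the cell cycle inhibitor Cdkn1a (45.5 TPM, against 6.34 and 10.3 TPM) were high in the same library. Embryonic and satellite cell genes had a median of -0.13 over 14 genes, led by the neonatal myosin Myh8 (-0.56 ± 0.23), and -0.04 without HF control 2.

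Erythroid, matrix, fibroadipogenic, interferon and macrophage lists had positive medians, none with a gene past the adjusted test. In bulk muscle, a change in the number of cells of a type and a change in RNA per cell cannot be told apart. The erythroid list had the highest median, 0.73 over 7 genes, all above 0, from 0.13 in HF and -0.48 in LF. Its summed level ran from 1399 to 3731 TPM in HF laparotomy and 1289 to 3368 TPM in HF control, and from 999.6 to 2161 TPM in LF laparotomy and 1125 to 3662 TPM in LF control, and these ranges overlap. The erythroid median was 0.28 without HF control 2 and 1.14 without LF control 2.

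The extracellular matrix list had a median of 0.14 over 40 genes, -0.06 in HF and -0.23 in LF. At an unadjusted p below 0.05, where 0.344% of all tested genes were positive as deposited, 1 of its genes was positive. This was Lama4, a laminin chain of vessel and muscle basement membranes, at 7.80, 8.62 and 11.3 TPM in HF laparotomy, against 7.95, 8.52 and 7.33 TPM in HF control, and at 5.58, 4.26 and 4.64 TPM in LF laparotomy, against 7.94, 6.69 and 5.09 TPM in LF control. Groups overlapped in HF and in LF. Fibroadipogenic markers had a median of 0.17 over 14 genes. Both medians crossed 0 without LF control 1, at -0.07 for matrix and -0.01 for fibroadipogenic genes, and were 0.37 and 0.49 without LF control 3. Without the 3 libraries high in Myh4 they were 0.49 and 0.59, and the interferon, macrophage and endothelial medians described next were 0.30, 0.55 and 0.25.

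Interferon and antigen presentation genes were above the all-gene median in both HF (0.42) and LF (0.28), with a median interaction of 0.15 over 32 genes and 0 at an unadjusted p below 0.05. Without LF laparotomy 3 that median was -0.11 and without LF laparotomy 2 it was 0.39. Macrophage markers had a median of 0.21 over 12 genes, which ran from -0.26 without HF laparotomy 3 to 0.53 without LF laparotomy 2. The 1 member at an unadjusted p below 0.05, the signalling adaptor Tyrobp, was negative (-1.36 ± 0.66) and listed at 0 in 3 libraries. At that threshold 2.73% of all tested genes were negative as deposited. The 12 genes summed to 47.19 to 155.1 TPM in HF laparotomy and 50.07 to 123.9 TPM in HF control, and to 51.62 to 121.3 TPM in LF laparotomy and 46.66 to 120.3 TPM in LF control. Endothelial markers had a median of 0.03 over 20 genes, from -0.15 without HF control 2 to 0.22 without LF laparotomy 1. Within them Cldn5, the tight junction claudin of endothelium, stood at 13.7, 14.1 and 13.1 TPM in HF laparotomy, against 16.6, 17.1 and 18.3 TPM in HF control without overlap, and at 17.1, 9.97 and 12.8 TPM in LF laparotomy, against 8.81, 7.10 and 11.6 TPM in LF control with overlap. Its centred interaction was -0.72 ± 0.25 log2 (limma adjusted p = 1).

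Glucocorticoid-responsive genes had a median of 0.32 over 17 genes, 0.28 in HF and 0.00 in LF, with 0 at an unadjusted p below 0.05. Without HF laparotomy 3 that median was 0.17, and without the libraries high in Myh4 0.20. Fam107a, induced by the glucocorticoid receptor, had the smallest p among them, at 1.02, 2.24 and 3.59 TPM in HF laparotomy, against 1.13, 1.39 and 1.06 TPM in HF control, and at 1.10, 1.39 and 1.30 TPM in LF laparotomy, against 1.80, 1.39 and 1.19 TPM in LF control. The circadian list had a median of 0.09 over 18 genes, 12 of them above 0, from 0.03 without HF control 1 to 0.16 without HF control 2. Per1, which is both a clock gene and a glucocorticoid target, had an interaction of 0.51 ± 0.25. The clock activators Arntl (-0.50 ± 0.26) and Clock (-0.32 ± 0.18) were the circadian list's 2 members at an unadjusted p below 0.05. Both had negative estimates, with limma adjusted p of 1. That p tests uncentred differences, which include the all-gene median of -0.09 that the printed estimates leave out. At that threshold 2.73% of all tested genes were negative as deposited. Clock stood at 1.53, 2.06 and 1.78 TPM in HF laparotomy, against 2.52, 2.85 and 2.62 TPM in HF control, without overlap, and at 3.46, 4.24 and 5.39 TPM in LF laparotomy, against 4.46, 4.16 and 4.19 TPM in LF control, with overlap.

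None of the 16 tested genes of a panel on wasting and stress passed the interaction test. The ubiquitin ligases Fbxo32 and Trim63, which mark muscle atrophy, had interactions of 0.23 ± 0.22 and 0.17 ± 0.29 log2. Fbxo32 stood at 51.0, 49.1 and 61.6 TPM in HF laparotomy, against 61.0, 79.4 and 54.3 TPM in HF control, and at 66.7, 61.4 and 85.2 TPM in LF laparotomy, against 83.2, 91.3 and 104 TPM in LF control. The HF groups overlapped and so did the LF groups. Of the other tested panel genes, the metallothioneins Mt1 and Mt2, the glucocorticoid target Fkbp5, the growth factor Igf1, the coactivator Ppargc1a, Stat3 and the polyamine enzyme Amd1 had interactions from 0.13 to 0.61 and limma adjusted p of 1. Those of Cdkn1a (-0.71 ± 0.73) and Gadd45a (-0.74 ± 1.10) changed sign without HF control 2, to 0.03 and 0.48. Sln (0.50 ± 0.78), the fuel-switch kinase Pdk4 (-0.11 ± 0.43) and the myogenic factor Myog (0.14 ± 0.60) had errors larger than their estimates. Amd1 shares 82.8% of its 31-base words with other genes, mainly Amd2, and Stat3 overlaps Stat5a on the opposite strand. The atrophy and FoxO list had a median of 0.03 over 24 genes, from -0.05 without LF laparotomy 2 to 0.09 without LF laparotomy 3. Leaving out the same libraries, that of the proteasome list, -0.01 over 33 genes, ran from -0.06 to 0.03, and it was above 0 with size factors, quantile normalization and rescaled TPM. The autophagy list had a median of 0.08 over 31 genes, from 0.03 without LF control 3 to 0.13 without LF laparotomy 3. Without the libraries high in Myh4 the atrophy and autophagy medians were -0.04 and -0.01.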

How the data were processed

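Soleus RNA of 12 libraries was analysed from the table the authors deposited, whose values are TPM per gene. The submitters' processing notes name kallisto, DESeq2, GENCODE M21 and GRCm38, without roles. TPM keeps no depth, so counting error per library is unknown here. The members and gene lists were chosen with earlier results of these data known. Groups follow the labels. Genes averaging 1 TPM or more were fitted on log2(TPM + 1) by group means in limma 3.58.1 (R 4.3.3), with an intensity trend, 8 residual degrees of freedom and Benjamini-Hochberg adjustment over 10757 genes, and all 4 groups shared 1 estimate of the spread. Fold changes are on that scale, which understates those of low genes. Shares of TPM and the first principal component were tested by exact permutation of treatment labels within HF and LF (400 arrangements). That permutation is exact for no laparotomy effect in either HF or LF, and not for an equal effect in both. Named genes were the 12 of smallest p per direction, up to 10 per pattern of non-overlapping groups (predicted and unnamed symbols left out), up to 3 per list, and a panel of 18, of which 16 were tested. Overlaps and shared 31-base words were read from GENCODE M21. Alternatives changed the pseudocount, filter, scaling, length and GC trend, variance model, covariate and libraries. The limma interaction fit was tested on simulated data. Tables were handled in Python 3.11.15 with pandas 2.3.3 and numpy 2.4.6, and figures drawn with matplotlib 3.10.9.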

Additional observations from a re-analysis of the deposited data

How the results depend on the processing

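No paired analysis was possible because the labels carry no replicate numbers and libraries were numbered in accession order. Genes called for the interaction were 2 with no filter on low values, 55 with array weights (a fit that did not converge and put a weight of 23.8 on LF laparotomy 2) and 0 to 1 when 1 library was left out. For laparotomy in HF these were 1, 3 and 0 to 1, and in LF 5, 734 and 0 to 1, with 1 more setting, without the 3 libraries high in Myh4, giving 1. The pattern higher in HF and lower in LF held 6 genes with no filter, 1 at a mean of at least 5 TPM, 10 with quantile normalization, 10 with rescaled TPM, 8 with the length and GC trend removed, 18 without the libraries high in Myh4 and 3 to 10 when 1 was left out. The pattern lower in HF and higher in LF held 12 with size factors, 13 with quantile normalization, 9 with rescaled TPM, 10 with the trend removed, 582 without the libraries high in Myh4 and 31 to 190 when 1 was left out. Leaving out 1 library, the interaction ran from -8.01 to 1.79 percentage points for the slow myosin share and from 3.33 to 7.88 for the mitochondrial share. Of 2049 values for 83 genes, 14 in 6 genes changed sign. Most of the 83 were picked by small interaction p in these same libraries, which favours a steady sign. Those that changed sign, except Cdkn1c, belong to the panel, which was not picked by p. With array weights Cdkn1a was 0.24, Gadd45a 0.31, Pdk4 0.41 and Cdkn1c 0.02. Pdk4 was 0.07 and Myog -0.53 without the libraries high in Myh4, and Myog was -0.10 with a fast muscle covariate. Leaving out 1 library gave -0.09 to 0.34 for Trim63, -1.25 to 0.03 for Cdkn1a, -1.36 to 0.48 for Gadd45a, -0.42 to 0.17 for Pdk4 and -0.41 to 0.54 for Myog. Except where a setting removes genes or libraries, the cause was not tested. The median standard error of 0.186 log2 limits what 3 libraries per group can show.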
